A study of Mus musculus with 6 samples.

Results

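The genes described here are 7 regulators of caspases, the proteases that carry out apoptosis. They were taken as a named list and found by summing the transcripts of each gene symbol. Of the 35853 genes summed and 11406 tested, all 7 passed the filter on low counts. Xiap, Birc2, Birc3 and Cflar encode proteins that restrain caspases, while Casp9, Apaf1 and Diablo encode proteins that promote their activation. The genes were chosen by their counts and TPM in the same contrast of sorted cells that is described here, so their differences between the groups are given as sizes with errors, without a test, and support nothing else. Caspase-9, an initiator, is the only caspase on the list. Other caspases are described further on, with the other genes of the pathway.

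The libraries came from blood of wild-type BALB/c mice, 4 weeks after 4T1 cells, a mouse mammary carcinoma line, had been placed orthotopically. Every mouse carried a tumour, and no group without one is described here. After red cells had been lysed, Ly6G-positive neutrophils were sorted by their surface Ly6C, giving 3 Ly6C-high and 3 Ly6C-low libraries. Nothing in the labels ties a library to its own mouse. The errors below therefore measure the spread between libraries, which may be technical.

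In the intrinsic route to apoptosis, cytochrome c leaves the mitochondria and binds Apaf1, which assembles into the apoptosome and activates caspase-9, and caspase-9 then starts the caspase cascade. XIAP binds and blocks caspases, caspase-9 among them, and Smac, the product of Diablo, leaves the mitochondria and displaces it. In the extrinsic route, death receptors recruit caspase-8, and c-FLIP, the product of Cflar, is a relative of caspase-8 without protease activity that joins the same complex. The ubiquitin ligases cIAP1 and cIAP2, encoded by Birc2 and Birc3, act in the complex of TNF receptor 1 and restrain the kinase NIK. Neutrophils are short-lived cells that die by apoptosis unless survival signals delay it.

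Cflar makes a long protein with a caspase-like part and a short one without it, so the place where their transcripts part is shown first. In the GENCODE M21 models, the long transcript (481 codons) and the short one (215 codons) share their first 612 coding bases. There the long one is spliced to its next exon and adds 277 codons, while the exon of the short one runs on past the splice site, adds 11 codons of its own and stops. The last 30 shared bases are in lower case, and the bases particular to each transcript are in capitals, 60 of them for the long form and all 36, with the stop codon, for the short form.
Long c-FLIP: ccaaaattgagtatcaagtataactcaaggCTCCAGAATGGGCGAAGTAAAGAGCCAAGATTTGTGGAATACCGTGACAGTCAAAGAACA
Short c-FLIP: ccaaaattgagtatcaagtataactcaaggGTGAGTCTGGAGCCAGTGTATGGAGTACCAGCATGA

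RefSeq promoter windows of 300 bases around an annotated start were available for all 7 genes, 10 windows in all (build GRCm38.p6). They were searched on both strands for GAAA, any 2 bases and GAAA, a core of the interferon-stimulated response element, and for GGG, any 2 bases and TTTCC, a form of the NF-kB site. The first motif was found in 1 of the 10 windows, that of Cflar, and in 3.44% of all 32851 windows. The second was in 0 of the 10 and in 1.63% of all. A narrower form of the first, with GT as the 2 middle bases, was in 0 of the 10 and in 0.253% of all. The window of Cflar is chr1:58711241-58711540, plus strand, and the match, in capitals, reads on the opposite strand as GAAACCGAAA. The match describes these letters and is not evidence of binding.
Cflar promoter: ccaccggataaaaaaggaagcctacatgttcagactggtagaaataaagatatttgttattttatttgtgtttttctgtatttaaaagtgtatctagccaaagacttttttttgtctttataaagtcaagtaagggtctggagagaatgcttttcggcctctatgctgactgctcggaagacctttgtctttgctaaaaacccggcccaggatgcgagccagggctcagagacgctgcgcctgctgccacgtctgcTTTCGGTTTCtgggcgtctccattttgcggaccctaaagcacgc

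The libraries held between 17192372 and 20973623 estimated counts. Ly6C-low replicate 3 stood apart at 38.02 on the first principal component, where the others lay between -19.65 and 3.91, so the differences of the 7 genes, and those of other genes and lists that it moved by over 1.5 times, are also given without it. All 8 neutrophil markers were detected in every library, with summed levels of 366100 to 371400 TPM (a scale corrected for transcript length that has the same total in every library) in the Ly6C-high and 337400 to 354000 TPM in the Ly6C-low libraries. The 8 eosinophil markers summed to between 18.9 and 23.8 against between 37.9 and 42.2 TPM, with 5 detected in every library. The 6 basophil and mast cell markers, all detected in every library, summed to between 2.34 and 4.06 against between 6.65 and 33.7 TPM. The 6 monocyte markers, all detected in every library, summed to between 101 and 106 against between 113 and 129 TPM, with Csf1r the highest of them. The groups did not overlap in these 4 sums. Those of B cells (1.90 to 3.82 against 1.77 to 3.05 TPM), T and NK cells (29.6 to 47.3 against 26.0 to 37.3), platelets (8.64 to 19.9 against 9.66 to 25.0) and red cells (685 to 2422 against 1729 to 2505) overlapped. The part of such cells in the differences below was not tested. In bulk libraries, fewer cells with a transcript and less of it per cell cannot be told apart.

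All 7 genes were expressed in both groups, and Birc3 was the most abundant of them. Summed over all transcripts, the mean level in TPM over the 6 libraries (± SD) was 161.5 ± 21.7 for Birc3, 43.8 ± 5.87 for Cflar, 34.1 ± 4.58 for Xiap and 26.9 ± 1.75 for Apaf1. It was 16.8 ± 1.92 for Casp9, 11.97 ± 2.01 for Diablo and 11.4 ± 0.874 for Birc2. Each gene lay above the next in all 6 libraries except Diablo, which lay above Birc2 in 4. The ranges of Cflar and Xiap, of Casp9 and Diablo, and of Diablo and Birc2 overlapped.

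In TPM, much of the level of Birc3 and Cflar fell on transcript models without a complete protein. For Birc3, models with a complete coding sequence held between 37.2% and 46.6% of the TPM, and for Cflar between 51.0% and 59.9%. In the other 5 genes that share was between 75.2% and 97.4%. Of the estimated counts, such complete models held between 87.6% and 90.0% for Birc3 and between 84.7% and 89.1% for Cflar. A pair of non-coding models of Birc3 are 355 and 360 bases long, of which 280 and 325 lie in introns of the main coding model. They took between 40.3% and 52.5% of the TPM of Birc3 and only between 4.57% and 7.09% of its estimated counts, because TPM divides by length.

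On complete coding models alone the order of levels changed below Birc3. Birc3 measured 67.2 ± 2.85 TPM (SD, n = 6 libraries), Xiap 30.5 ± 3.92, Cflar 24.4 ± 2.62 and Apaf1 23.8 ± 2.77. Casp9 measured 15.1 ± 1.56, Birc2 10.9 ± 0.767 and Diablo 10.3 ± 1.53 TPM. Xiap now lay above Cflar in all 6 libraries, with overlapping ranges. Cflar exceeded Apaf1 in 3 of 6, and Birc2 exceeded Diablo in 4 of 6, so neither pair was ordered beyond its spread. On this measure the level of Birc3 was between 5.85 and 6.77 times that of Birc2 in the 6 libraries. The 2 genes are neighbours on chromosome 9, and their main coding sequences are identical at 76.7% of 1774 aligned bases. Their transcripts share 93 words of 31 bases, 2.03% of those of Birc2 and 1.84% of those of Birc3.

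**Figure D1:**
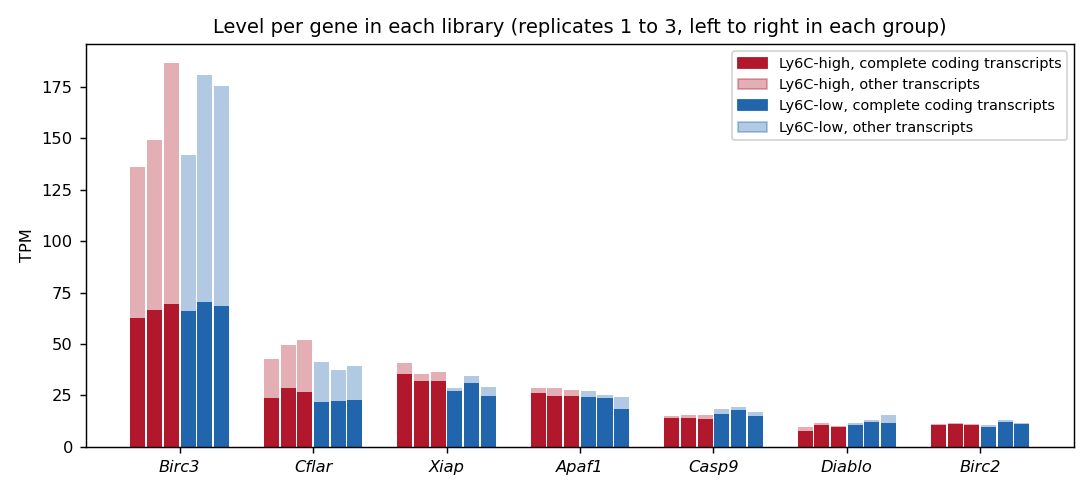
Level of each gene in TPM in each of the 6 libraries. Red bars are Ly6C-high and blue bars Ly6C-low libraries, with transcript models that hold a complete coding sequence in the dark shade and the rest in the light one. Birc3 is the highest gene on both measures, and its dark part is only 37.2% to 46.6% of the bar.

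Between the groups, the 7 genes moved by small amounts and in different directions. Differences were measured on CPM, counts scaled to a common library total with TMM factors (which correct for a few genes taking many of the reads) and not by gene length. Xiap, Cflar and Apaf1 were higher in all 3 Ly6C-high libraries than in any Ly6C-low library, Diablo was lower in all 3, and Birc2, Birc3 and Casp9 overlapped. Thus 3 of 7 lay higher without overlap, beside 10.3% of all genes tested, and 1 of 7 lower, beside 10.9%, or 4 of 7 in either direction, beside 21.1%. The median log2 fold change, Ly6C-high over Ly6C-low, was 0.07 over the 7 and 0.00 over all genes tested. Above 0 lay 5 of the 7, beside 5607 of the 11406 genes tested. The choice of these genes used this contrast, so no more is read from these counts.

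**Figure D2:**
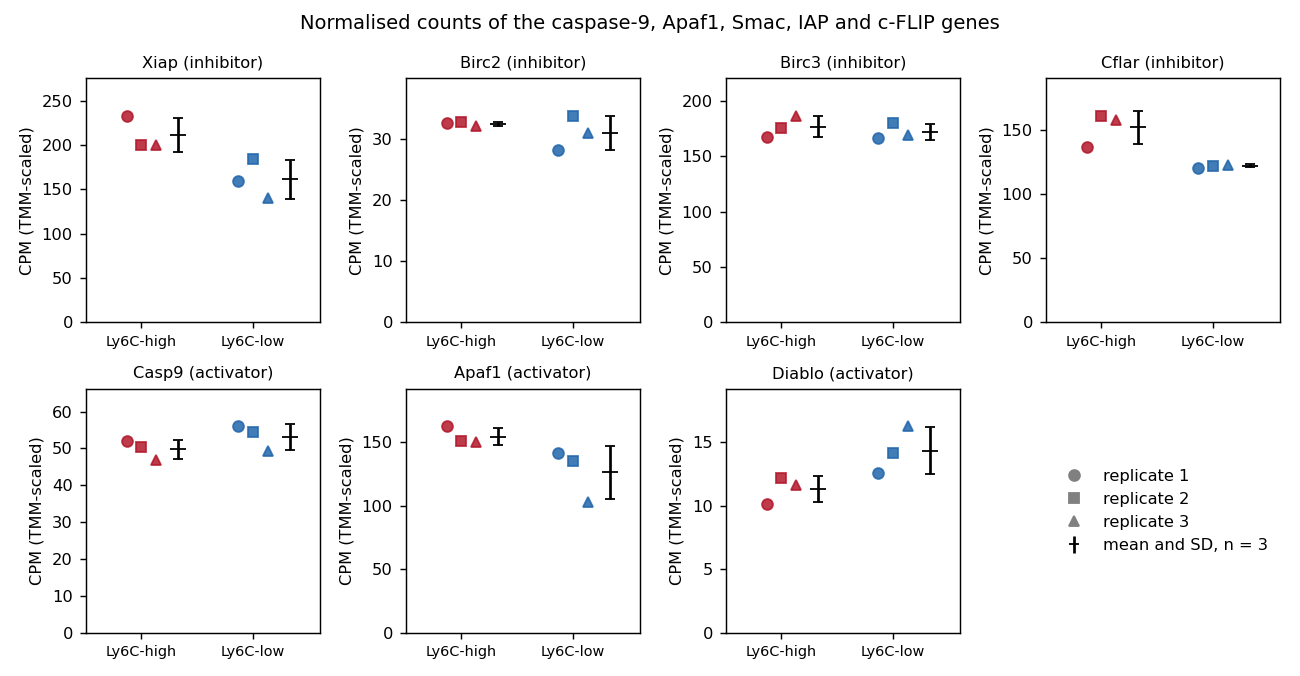
Normalised counts (TMM-scaled CPM) of the 7 genes in each library, with the mean and SD of each group (n = 3). Xiap, Cflar and Apaf1 lie higher and Diablo lower in every Ly6C-high library, while Birc2, Birc3 and Casp9 overlap.

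Among the inhibitors, Xiap, the direct blocker of caspases, on chromosome X, was higher in the Ly6C-high cells. It measured 234, 200.4 and 200.3 CPM in Ly6C-high replicates 1, 2 and 3, and 159.5, 184 and 141 CPM in Ly6C-low replicates 1, 2 and 3. The gap between the groups, from 184 to 200.3, was narrow, and Ly6C-low replicate 3 was the lowest library. The log2 fold change was 0.39 ± 0.11 (SE) (95% interval 0.14 to 0.64), a 1.31-fold higher level in the Ly6C-high cells. Without Ly6C-low replicate 3 it was 0.30.

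Cflar, on chromosome 1, measured 137, 161 and 158 CPM in the Ly6C-high libraries and 121, 122 and 123 CPM in the Ly6C-low libraries. The Ly6C-low libraries lay close together, and all 3 Ly6C-high libraries lay above them. The log2 fold change was 0.32 ± 0.09 (SE) (95% interval 0.12 to 0.52), and 0.33 without Ly6C-low replicate 3. It was thus as large without the library that stood apart.

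The pair of cIAP genes showed little difference. Birc2 measured 32.6, 32.8 and 32.1 CPM in the Ly6C-high and 28.2, 33.8 and 30.97 CPM in the Ly6C-low libraries. Birc3 measured 168, 176 and 187 against 167, 180.0 and 169 CPM. In Birc2 the Ly6C-high libraries lay within the range of the Ly6C-low ones, and in Birc3 the groups overlapped. The log2 fold change was 0.07 for Birc2 (95% interval -0.15 to 0.28, and 0.07 without Ly6C-low replicate 3) and 0.04 for Birc3 (-0.15 to 0.23, and 0.03 without it). In log2 units neither interval reached beyond 0.28. Their sign turned with the scaling: with library size alone the values were -0.04 and -0.07, in a setting that moved the median of all genes by -0.11. In TPM both means were also slightly lower in the Ly6C-high cells, at 11.2 ± 0.395 against 11.7 ± 1.24 for Birc2 and 157 ± 26.1 against 166 ± 20.9 for Birc3 (SD, n = 3 each).

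Among the activators, Apaf1, the scaffold of the apoptosome, on chromosome 10, measured 162, 151 and 150 CPM in the Ly6C-high libraries and 141, 135 and 103 CPM in the Ly6C-low libraries. The groups did not overlap, and Ly6C-low replicate 3 lay far below the rest. The log2 fold change was 0.29 ± 0.12 (SE) (95% interval 0.03 to 0.55). Without that library it was 0.16, so a large part of the size of the difference rested on it.

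Casp9, the protease that the apoptosome activates, on chromosome 4, measured 52.0, 50.3 and 46.95 CPM in the Ly6C-high and 56.0, 54.3 and 49.3 CPM in the Ly6C-low libraries. The groups overlapped, and the log2 fold change was -0.10 ± 0.09 (SE) (95% interval -0.30 to 0.11), and -0.15 without Ly6C-low replicate 3. In TPM its groups did not overlap, at 14.9, 15.7 and 15.3 against 18.7, 19.6 and 16.7. The direction was the same on both scales, but the 2 scales differed in whether the groups separated. Exons of Casp9 overlap those of Cela2a and Ctrc on the opposite strand. Ctrc was listed at between 3.69 and 14.1 TPM from at most 29.3 counts in a library, against 929 to 1122 counts for Casp9.

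Diablo, whose product Smac frees caspases from XIAP, on chromosome 5, was the least counted of the 7. It measured 10.2, 12.2 and 11.6 CPM in the Ly6C-high and 12.6, 14.1 and 16.2 CPM in the Ly6C-low libraries, from 192 to 237 and from 252 to 306 counts. The nearest libraries of the groups, at 12.2 and 12.6 CPM, almost met. The log2 fold change was -0.34 ± 0.14 (SE) (95% interval -0.64 to -0.04), and -0.24 without Ly6C-low replicate 3, its highest library. In TPM the groups overlapped slightly, since Ly6C-high replicate 2, at 11.8, exceeded Ly6C-low replicate 1, at 11.6. Of the 3 genes annotated over exons of Diablo, B3gnt4 and Gm49027 were at or under 0.077 TPM, and AC157931.1, on the opposite strand, was not analysed here.

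**Figure D3:**
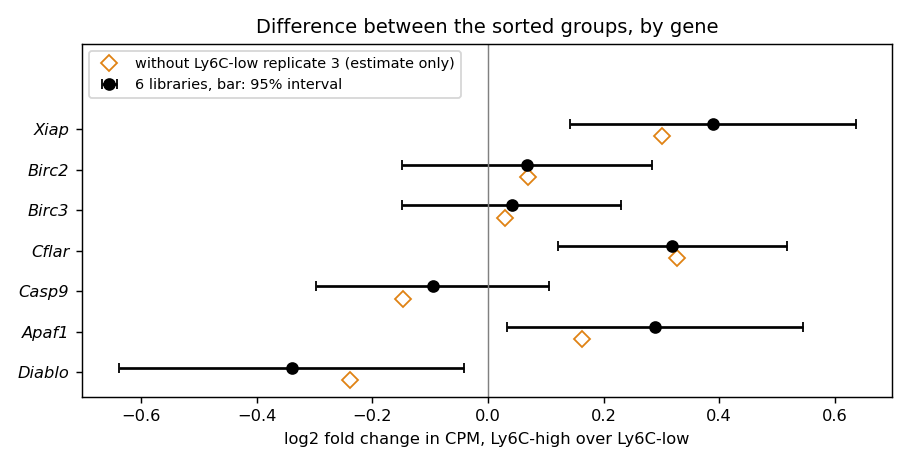
Log2 fold change in CPM of each gene, Ly6C-high over Ly6C-low, with its 95% interval (black), and the estimate without Ly6C-low replicate 3 (open diamonds). Apaf1 moved most towards 0 without that library, from 0.29 to 0.16, and Cflar did not.

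Set against each other within each library, the inhibitors exceeded the activators in TPM, with no clear difference between the groups. The summed level of Xiap, Birc2, Birc3 and Cflar over that of Casp9, Apaf1 and Diablo was 4.34, 4.38 and 5.36 in the Ly6C-high and 3.89, 4.59 and 4.52 in the Ly6C-low libraries. The groups overlapped, at 4.69 ± 0.580 against 4.335 ± 0.385 (SD, n = 3 each). Birc3 made up most of the inhibitor sum. Without it the ratio was 1.77, 1.72 and 1.865 against 1.41, 1.47 and 1.42, and the groups did not overlap. On complete coding models, with Birc3, it was 2.81 ± 0.0740 against 2.61 ± 0.197 and the groups overlapped. In TMM-scaled CPM, with Birc3, it was 2.66 ± 0.115 against 2.53 ± 0.247, and the groups again overlapped. The groups thus overlapped on each of these measures that held Birc3, and separated when Birc3 was left out. The summed TPM of the activators was itself lower in every Ly6C-high library, at 53.1, 56.1 and 53.3 against 57.2, 57.8 and 56.5.

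Some single pairs that act on each other differed more. The TPM of Xiap over that of its antagonist gene Diablo was 4.17, 2.99 and 3.54 in the Ly6C-high and 2.48, 2.65 and 1.89 in the Ly6C-low libraries. Xiap over its target Casp9 was 2.74, 2.25 and 2.37 against 1.55, 1.77 and 1.73. Apaf1 over its partner Casp9 was 1.92, 1.82 and 1.82 against 1.445, 1.28 and 1.46. All 3 ratios were higher in every Ly6C-high library, with group means 1.525, 1.46 and 1.33 times as high. They share Xiap and Casp9 and reuse the levels by which the genes were chosen, so they are not separate results. No share over other gene pairs was taken as a background. Ly6C-low replicate 3, the library that stood apart, had the lowest ratio of Xiap to Diablo. Cflar over Casp8, whose recruitment c-FLIP competes with, was 1.59, 2.07 and 1.96 against 1.64, 1.43 and 1.97 and overlapped.

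**Figure D4:**
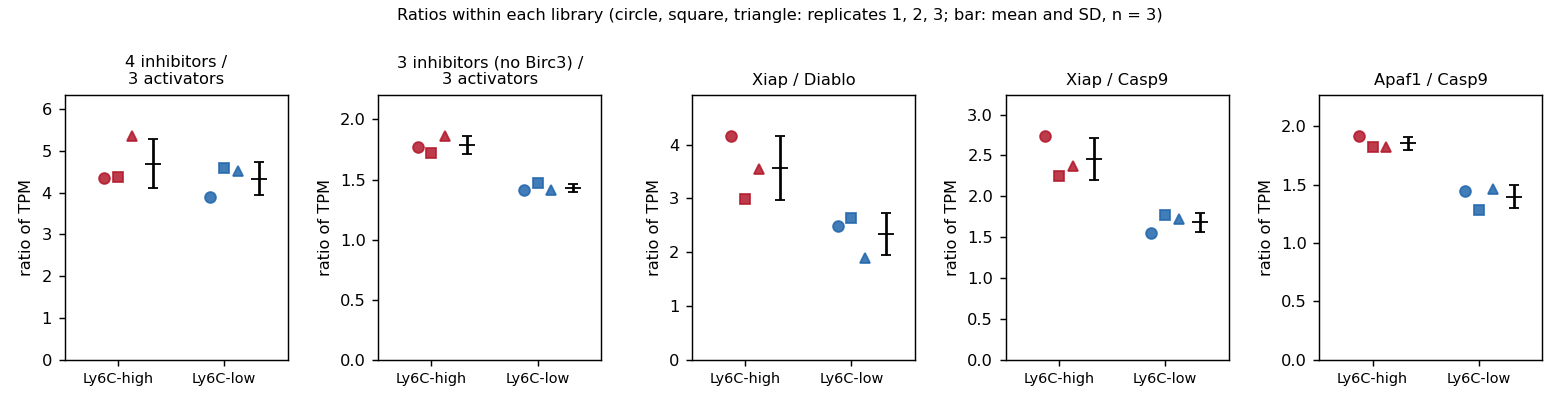
Ratios of TPM within each library, with the mean and SD of each group (n = 3). The ratio of all 4 inhibitors to the 3 activators overlaps between the groups, while the ratio without Birc3 and the 3 pair ratios do not.

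The balance of long and short c-FLIP transcripts was a measure the choice of genes had not used. The long form, counted over models of at least 400 codons, took 75.7%, 77.1% and 82.1% of the TPM on coding Cflar models in the Ly6C-high libraries. In the Ly6C-low libraries the share was 77.1%, 79.3% and 75.3%. The groups overlapped and differed by 1.08 percentage points, at 78.3 ± 3.36% against 77.2 ± 2.01% (two-sided exact permutation p = 0.6, n = 3 each), where 3 against 3 libraries allow no p under 0.1. Without Ly6C-high replicate 3 the difference was -0.82. The short form came from only 144 to 210 estimated counts per library, against 1815 to 2565 for the long form. In level, the long form measured 20.7 ± 2.18 TPM in the Ly6C-high and 17.3 ± 0.444 TPM in the Ly6C-low libraries, and the short form, shown above with its own 11 codons, 5.70 ± 0.886 and 5.10 ± 0.517 TPM.

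Among the other genes of the pathway, 6 lists by function held 69 genes, of which 59 passed the filter on low counts. Adjusted over all genes tested, edgeR's quasi-likelihood test called 0 of the 59, beside 0.0351% of all genes, and limma voom 0, beside 0.0263%. DESeq2 called 1, Ptma, lower in the Ly6C-high cells (DESeq2 adjusted p = 0.0478), beside 1.10% of all genes. For some of the 59 genes, Xaf1, Naip6 and Fadd among them, DESeq2 gave no adjusted p, so it could not call them. Every list below except that of the other caspases held such genes. At an unadjusted p under 0.05 edgeR counted 11 of the 59, beside 14.3% of all genes, with 8 higher (6.92% of all genes) and 3 lower (7.34%). The groups did not overlap in 8 higher, beside 10.3% of all genes, and 7 lower, beside 10.9%. These shares of all genes are the background for the counts in each list below. The median log2 fold change of the 59 was 0.02, and 0.05 without Ly6C-low replicate 3, beside 0.00 for all genes in both cases.

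The other caspases held 7 tested genes of 9, with a median of 0.20, and 0.10 without Ly6C-low replicate 3. By adjusted p, edgeR, DESeq2 and voom each called 0, and edgeR's unadjusted p also gave 0, where 14.3% of all genes were counted. Casp4, an inflammatory caspase that senses bacterial lipopolysaccharide, was the most abundant at 177 ± 20.8 TPM in the Ly6C-high and 159 ± 23.7 TPM in the Ly6C-low libraries. Casp6 varied widely among libraries, with 80.2, 46.9 and 50.1 TPM in the Ly6C-high and 102, 69.6 and 86.5 TPM in the Ly6C-low libraries. The log2 fold change of Casp6 in CPM was -0.41 ± 0.27 (SE). The initiator gene Casp8 measured 25.8 ± 1.55 against 23.8 ± 3.31 TPM, above Casp9. Casp1, which activates interleukin-1 beta, had a log2 fold change of 0.25 ± 0.13 (SE), and 0.10 without Ly6C-low replicate 3. Casp12 lay at or under 0.446 TPM, and Casp14 was listed at 0 in all 6 libraries.

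Of the other proteins with a BIR domain, the fold that defines the IAPs, 5 of 7 were tested, with a median of 0.15, and 0.25 without Ly6C-low replicate 3. All 5 log2 fold changes lay above 0, beside 5607 of the 11406 genes tested, but only that of Naip2 exceeded its SE. By adjusted p, edgeR, DESeq2 and voom each called 0, and by edgeR's unadjusted p 1 of 5 was higher, beside 6.92% of all genes. DESeq2 gave no adjusted p for most of the 5, Naip6 among them, and could not call those. Naip2, a sensor of bacterial secretion systems in the NAIP inflammasome, was the most abundant at 23.6, 23.5 and 23.3 TPM against 23.0, 22.3 and 17.7 TPM. Its log2 fold change was 0.25 ± 0.12 (SE), and 0.125 without Ly6C-low replicate 3, the library that was lowest. Naip6, at or under 0.308 TPM, had one of 0.34 ± 0.34 (SE). The Naip genes are close copies, so the division of reads among them is uncertain. Birc7 was listed at 0 in all libraries.

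Genes for mitochondrial release and regulators of the apoptosome had 8 of 11 tested, with a median of -0.19, and -0.12 without Ly6C-low replicate 3. Below 0 lay 6 of the 8, beside 5799 of the 11406 genes tested. Past an adjusted p of 0.05 stood 0 by edgeR, 0 by voom and 1, a lower one, by DESeq2, beside 1.10% of all genes. DESeq2 gave no adjusted p for some of the 8, Xaf1 among them. By edgeR's unadjusted p, 1 of 8 counted as higher, beside 6.92% of all genes, and 2 as lower, beside 7.34%. Xaf1, an interferon-inducible antagonist of XIAP, measured 7.19, 8.585 and 7.93 CPM in the Ly6C-high and 5.39, 6.03 and 4.19 CPM in the Ly6C-low libraries. The groups did not overlap, and the log2 fold change was 0.60 ± 0.17 (SE) (edgeR adjusted p = 0.209), and 0.47 without Ly6C-low replicate 3. Ptma, the gene of prothymosin alpha, a small acidic protein reported to restrain the apoptosome, measured 111, 72.7 and 77.4 against 118, 113 and 156 CPM. Its log2 fold change was -0.57 ± 0.19 (SE) (edgeR adjusted p = 0.257, and between 0.222 and 0.583 with 1 library left out). It has many processed copies in the genome, so its count is uncertain. Anp32a, which promotes caspase-9 activation, was the most abundant of the list and differed by 0.07 ± 0.11 (SE), and by 0.003 without Ly6C-low replicate 3. Cycs, the gene of cytochrome c, lay at 2.78 ± 0.204 and 3.23 ± 0.975 TPM, under every one of the 7 genes.

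Genes of death receptor complexes had 15 of 18 tested, with a median of 0.00, and -0.04 without Ly6C-low replicate 3. All of edgeR, DESeq2 and voom called 0 by adjusted p, while edgeR's unadjusted p gave 1 of 15 higher, beside 6.92% of all genes, and 1 lower, beside 7.34%. Tnfrsf1a, TNF receptor 1, was the most abundant at 267 ± 26.7 against 273 ± 27.5 TPM. Tnf, its ligand, measured 8.515, 6.99 and 9.89 against 6.14, 4.61 and 7.21 CPM, a log2 fold change of 0.50 ± 0.20 (SE) and overlapping groups. Otulin, which trims linear ubiquitin chains, measured 28.8, 26.9 and 24.9 against 33.2, 30.96 and 30.65 CPM, and its log2 fold change was -0.24 ± 0.10 (SE). Fas was at 45.9 ± 3.02 and 45.2 ± 5.95 TPM, while its adaptor Fadd lay between 0.272 and 0.416 TPM in all libraries, far under its partners Casp8 and Cflar. Fasl and Tnfsf10, the genes of the Fas ligand and TRAIL, lay at or under 0.313 TPM.

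Partners of the cIAPs and kinases of NF-kB had 12 of 12 tested, with a median of -0.02, which turned to 0.11 without Ly6C-low replicate 3. All of edgeR, DESeq2 and voom called 0 by adjusted p, while edgeR's unadjusted p gave 3 of 12 higher, beside 6.92% of all genes, and 0 lower, beside 7.34%. Traf3, the adaptor that brings NIK to the cIAPs, measured 28.8, 36.95 and 34.5 against 27.3, 27.2 and 28.5 CPM, a log2 fold change of 0.27 ± 0.11 (SE). Map3k7, the kinase TAK1, had one of 0.22 ± 0.09 (SE). Tab2, its adaptor and the most abundant of the list, differed by 0.02 ± 0.10 (SE), and by 0.11 without Ly6C-low replicate 3. Caspase substrates had 12 of 12 tested, with a median of 0.03. All of edgeR, DESeq2 and voom called 0 by adjusted p, while edgeR's unadjusted p gave 2 of 12 higher and 0 lower, beside the same shares of all genes. Rock1, a kinase that drives membrane blebbing once cleaved, measured 231, 237 and 235 against 188, 202 and 201 CPM, a log2 fold change of 0.25 ± 0.08 (SE). Lmnb1, lamin B1, had one of 0.22 ± 0.10 (SE), and 0.145 without Ly6C-low replicate 3. Gsn, the actin-severing gelsolin and the most abundant substrate, had one of -0.14 ± 0.11 (SE), and -0.22 without that library.

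**Figure D5:**
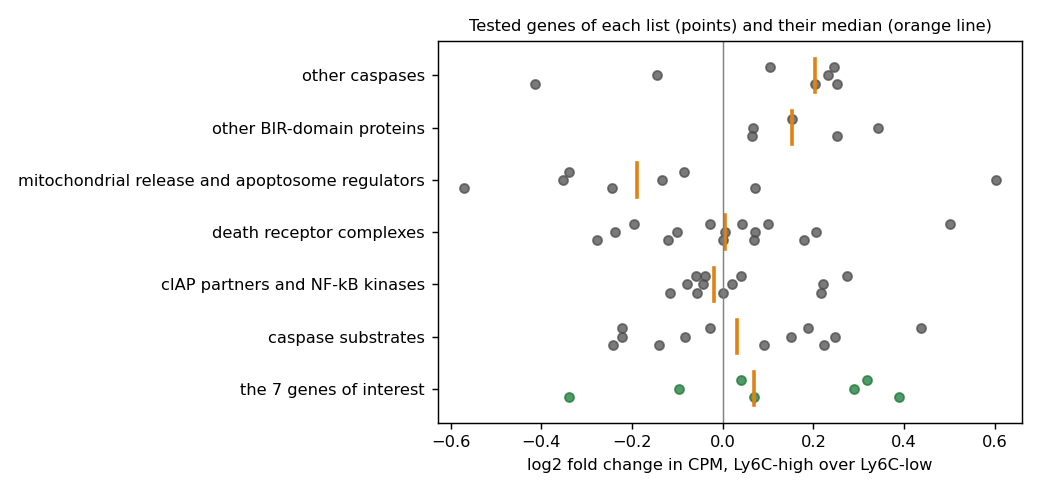
Log2 fold change in CPM, Ly6C-high over Ly6C-low, of each tested gene in the 6 pathway lists and of the 7 genes described first, with the median of each in orange. Medians lie between -0.19 and 0.20, and edgeR called 0 of the 59 pathway genes.

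Across the 6 libraries each of the 7 genes had its own closest pattern among 6949 genes. The measure was Pearson's r of log2 CPM over 6 libraries, given as a description because the points share their libraries and the best of many genes is always high. For Xiap the closest were Ipmk and Osbpl8, for Birc2 Sos1 and D16Ertd472e, and for Birc3 Cdk13 and Plekhg6. For Cflar they were Retnlg, an abundant neutrophil gene, and Ccdc189. They were Dcaf7 and Ppip5k2 for Casp9, Fam129a and Scaper for Apaf1, and Afap1 and Khk for Diablo. The 14 values of r lay between 0.971 (Birc2 and D16Ertd472e) and 0.997 (Apaf1 and Fam129a), and the 14 genes did not include any of the 7.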

How the data were processed

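Per the labels' protocols, mRNA of sorted blood neutrophils went into strand-marked libraries that were read from 1 end for 75 cycles. Per the submitters' processing notes, the authors quantified each sample with kallisto and used GRCm39. The sources used here do not give its version, index or strand setting, so reads of genes overlapping on opposite strands cannot be told apart. The deposited tables give estimated counts, TPM and effective length per transcript, per the file headers.

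Transcripts were assigned to genes by identifier with GENCODE M21 (build GRCm38, so no gene coordinates are given), and 99.04% matched, with at least 99.747% of the counts. Estimated counts were summed per gene, and rounded, and edgeR 4.0.16 under R 4.3.3 tested them (filterByExpr, TMM, quasi-likelihood F test, group as the term), with Benjamini-Hochberg adjustment over 11406 genes and a threshold of 0.05. DESeq2 1.42.0 and voom in limma 3.58.1 were run beside it. Levels of different genes were compared in TPM, and libraries in TMM-scaled CPM. Alternatives were DESeq2's size factors, library size alone, other filters, length-scaled TPM, a replicate block and each library left out.

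The members and lists were chosen with earlier results of these data known. The rule named, from each pathway list, genes past the threshold, the 2 with the smallest p and the most abundant, and for each member the 2 most similar genes with a mean of at least 5 CPM, leaving out predicted genes and pseudogenes. Casp6, Casp8, Casp12, Casp14, Birc7, Cycs, Fas, Fadd, Fasl and Tnfsf10 were named after their values were seen. Some genes of the lists are not reported here by name.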

Additional observations from a re-analysis of the deposited data

How the results depend on the processing

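The log2 fold changes of the 7 genes moved by less than the spread between replicates in 94 of 98 alternatives and kept their sign in 94. The 4 that moved further all came from library size alone. They were those of Birc2, Birc3, Cflar (from 0.32 to 0.21) and Casp9 (from -0.10 to -0.20). The changes of sign were in Birc2 and Birc3. Xiap stayed between 0.29 and 0.49, Cflar between 0.21 and 0.39, Apaf1 between 0.16 and 0.375, Casp9 between -0.20 and -0.055 and Diablo between -0.45 and -0.23. The genes past the threshold were 4 with group as the only term, 8 with library size alone, 439 without a filter, 126 with DESeq2, 2 with length-scaled TPM and 2 to 22 with 1 library left out (22, 6 higher and 16 lower, without Ly6C-low replicate 3, and 2 without Ly6C-high replicate 2 or 3 or Ly6C-low replicate 2). A replicate block gave 61, but the labels do not say whether equal numbers mark paired samples. Same-numbered libraries deviated together with r of 0.24, -0.04 and 0.24, and Ly6C-high replicate 2 correlated best with Ly6C-low replicate 1. With 3 libraries per group these values cannot decide whether the samples were paired. The pathway genes past the threshold were 0, and 1 (Ptma) without a filter and with DESeq2; with 1 library left out the count was 0 in all 6 cases. The difference in the long c-FLIP share was -1.10 points over all Cflar models, and between -0.82 and 2.39 with 1 library left out. The ratio of inhibitors to activators was 1.08 times as high in the Ly6C-high cells, 1.25 without Birc3, 1.19 from mean log2 TPM, 1.08 on complete coding models (chosen after seeing the data), and between 1.005 and 1.12 with 1 library left out. The cause of these changes was not tested beyond what each setting alters.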
